A study of Mus musculus with 11 samples.

Results

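Kupffer cells (KCs), the macrophages (macs) of the liver, were set against the macs of 4 other tissues in wild-type (WT) mice, by droplet single-cell RNA sequencing. A KC was a cell of a WT liver library with at least 1 UMI (unique molecular identifier, a tag that marks 1 captured RNA molecule) of Clec4f, the gene of a C-type lectin used to identify mouse KCs. After filters on cell quality and on clusters of other cell types, 7324 cells met the rule, out of 8514 liver barcodes and 28777 barcodes in the 6 WT libraries. The liver gave 3871 of them in replicate 1 and 3453 in replicate 2.

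Replicate 1 was of the genotype Zeb2fl/fl and replicate 2 of the genotype Nr1h3fl/fl. In each, loxP sites flank the named gene, and no CRE recombinase was present to delete it. The comparators were 2830 microglia from brain, 4347 colonic macs (CMs), 6971 alveolar macs (AMs) from lung and 3231 splenic macs (SMs), with 1 library each, all from Zeb2fl/fl mice without CRE. The mice were of the C57Bl/6 background and of both sexes, and their age was 6 to 8 weeks where nothing else is stated. The number of mice behind a library is not given in the sources used here. The 2 liver libraries therefore differ in genotype as well as in sample, and each other tissue has no replicate.

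KCs sit inside the liver sinusoids, where portal and arterial blood flows slowly past them. They bind and clear bacteria, worn-out red blood cells, lipoproteins and complement-coated particles from that blood, and they recycle the iron and cholesterol they take up. Liver X receptor α (LXRα, encoded by Nr1h3) and ID3 are transcription factors known to be needed for their identity, and macs of every tissue share a core set of genes such as Csf1r, the receptor of the mac growth factor CSF1.

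The libraries held 3097 to 7703 barcodes and 11133411 to 47400786 UMIs, with a median of 2108.5 (SMs) to 8754 (CMs) UMIs per barcode. Between 19 and 56 barcode sequences were shared by any pair of libraries. The median share of mitochondrial UMIs among the cells used was 2.91% and 4.96% in the liver libraries, 1.01% in microglia, 2.60% in CMs, 3.30% in AMs and 8.36% in SMs. Levels are given below as CPM, the UMIs of a gene divided by all UMIs summed over the cells used of a library and scaled to a total of 1000000, and the level that 3 UMIs would give lay between 0.0697 CPM (CMs) and 0.369 CPM (SMs). The sort gate for KCs required Clec4F besides the general mac markers CD64 and F4/80, and that for AMs required CD11c and SiglecF. Clec4f itself was thus set both by the sort and by the rule, and its own test is not counted. The SMs included a cluster of 198 cells (6.13%) led by B cell genes that the cluster rule did not remove. It held 2616 CPM of the B cell list, against 443.2 to 587.0 CPM in the other SM clusters, and 10421 CPM of the core mac list, against 13821 to 15849. Cd79a, which defines B cells, was seen in 12.9% of SMs at full depth and in at most 0.956% of the cells of any other library. It was at 506.5 CPM in that cluster and at 28.5 to 122.9 CPM in the other SM clusters. The comparator from spleen thus held B cell RNA, and how far B cells, joined cells or free RNA made it up was not tested.

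Nearly all cells of the liver libraries carried Clec4f UMIs, and almost none of the other macs did. Before any filter, 99.1% of replicate 1 barcodes and 99.7% of replicate 2 barcodes had a Clec4f UMI. The cells that passed all filters had a median of 29 Clec4f UMIs in replicate 1 and 17 in replicate 2. At the edge of the rule, 20 and 9 cells had exactly 1 Clec4f UMI, while 4 and 1 cells had none and were left out. Among the other macs, 1 CM cell carried a Clec4f UMI after the filters. No liver population lacked Clec4f UMIs: the cells left out as B cells (192 cells), hepatocytes (143) and liver sinusoidal endothelial cells (LSECs, 347) had medians of 4.5, 21 and 27 Clec4f UMIs. The cluster rule left out 422 cells with a Clec4f UMI in replicate 1 and 220 in replicate 2. The KC marker Vsig4, described below, was at 3086 CPM in the hepatocyte cluster, 2731 in the LSEC cluster and 1795 in the B cell cluster. Cluster names rest on markers of the other type, and whether their barcodes also held KCs was not tested. How far free RNA, joined cells or expression made up the Clec4f UMIs of those clusters was not tested.

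The label was checked against the other KC markers, which the rule did not use but the sort selected for indirectly. Vsig4 (chrX:96247203-96293438, minus strand), encoding the complement receptor CRIg, stood at 3292 and 3152 CPM in KCs, and it was at 14.7 CPM in CMs, 6.03 in SMs, 0.109 in AMs and 0 in microglia. Cd5l (chr3:87357881-87371073, plus strand), which encodes a secreted scavenger protein and is a known LXR target, was at 5250 and 4028 CPM in KCs. SMs held 681.2 CPM of Cd5l, and no other mac exceeded 0.486 CPM. Timd4 (chr11:46810800-46844332, plus strand), the phosphatidylserine receptor TIM-4, was at 560.4 and 484.1 CPM in KCs, 70.4 in SMs and 30.2 in CMs, and it had no UMI in microglia or AMs. Both liver libraries lay above every other tissue for all these markers, with Vsig4 the furthest apart and Cd5l and Timd4 partly shared with the spleen.

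Cells were thinned to 1000 UMIs each so that shares of positive cells could be compared across depths, which left out 268 SM cells with fewer UMIs. Vsig4 was then seen in 92.3% and 93.1% of KCs (99.3% and 99.7% at full depth), against 1.33% of CMs and 0.607% of SMs. Timd4 was seen in 40.5% and 36.6% of thinned KCs but in 87.3% and 82.2% at full depth, so its share depended strongly on depth. In the liver cluster left out as B cells, whose median depth was 3853 UMIs against 5293 and 4491 in KCs, the thinned shares were 52.1% for Vsig4 and 15.6% for Timd4. The liver libraries thus carried KC transcripts in barcodes left out as other types as well, and shares within the liver are read only against the other tissues.

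**Figure D1:**
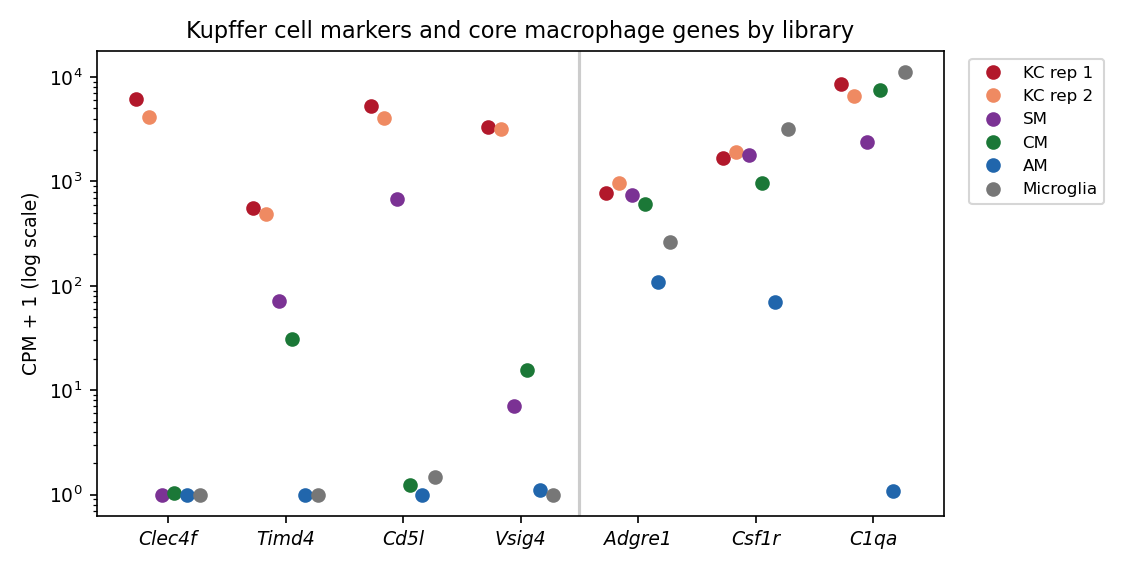
Levels of the 4 KC markers and of Adgre1, Csf1r and C1qa from the core mac list in the 6 WT libraries, as CPM plus 1 on a log axis, with 1 point per library. Not all of these core genes are shared by every tissue, since C1qa was seen in 0.0287% of AMs at full depth. KCs (2 points) lie above every other tissue for Clec4f, Vsig4, Cd5l and Timd4, with SMs second for Cd5l at 681.2 CPM.

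A gene was called KC-high when it had at least 20 CPM in both liver libraries and, in each of them, a level at least 2 times that of the highest other tissue (log2 ratio of CPM plus 1 of at least 1). It was called KC-low when it had at least 20 CPM in all 4 other tissues and at most 1/2 of the lowest of them in each liver library. The rule is a description of these libraries, since each other tissue has 1. Of 4785 genes that could be KC-high, 105 were, which is 2.19%. Of 3547 genes that could be KC-low, 46 were, which is 1.3%. Replicate 1 alone would have given 138 KC-high genes and replicate 2 alone 131, so the shared 105 made up 76.1% of the first list and 80.2% of the second. Without the spleen cluster led by B cell genes, an alternative added after the data had been seen, 104 KC-high and 44 KC-low genes were called, all of them among the 105 and 46. The shared 46 KC-low genes made up 74.2% of the 62 of replicate 1 and 90.2% of the 51 of replicate 2.

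The liver libraries were close to each other. Over the 7718 genes with at least 20 CPM in any of the 6 libraries, Pearson's r of log2 CPM between them was 0.973, while r between a liver library and another tissue ran from 0.578 (AMs) to 0.806 (SMs). Replicate 1 was closest to CMs (0.802, against 0.768 for SMs) and replicate 2 to SMs (0.806, against 0.767 for CMs). Over the 4785 genes that could be KC-high, which the liver level selected, CMs were closest to both (0.818 and 0.786, against 0.708 and 0.762 for SMs). These values are across genes, which are not independent replicates, and each pair of liver values shares its tissue, sort and digestion. Of the 4785 genes that could be KC-high, 31 (0.648%) were 2-fold apart between the liver libraries, and 2 of these were among the 105 KC-high genes.

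**Figure D2:**
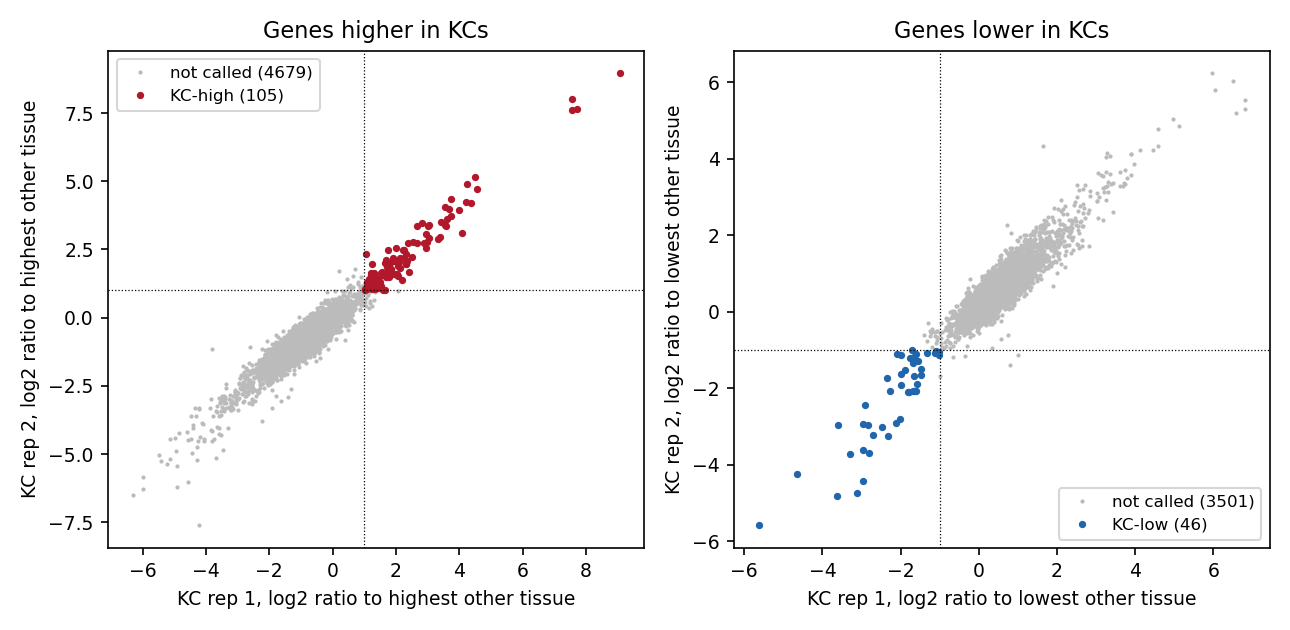
Log2 ratio of each gene in KC replicate 1 (x axis) and KC replicate 2 (y axis), over the highest other tissue (left, for KC-high genes) and over the lowest other tissue (right, for KC-low genes). The 105 KC-high genes and the 46 KC-low genes are coloured, and the 2 replicates lie along the diagonal in both panels.

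A test over libraries was made in edgeR with the 4 other tissues as the replicates of non-liver macs, so that a gene had to be uniformly low in all of them to pass. Besides Clec4f, 3 of 12803 genes (0.0234%) were higher in KCs at an adjusted p under 0.05, namely Cdh5, Fabp7 and Apoa2. Clec4f, which chose the cells, stayed in the adjustment with the smallest p of all genes. It is not shown that Fabp7 and Apoa2, both near the threshold, would pass without it. None was lower (0.0%). At an unadjusted p under 0.05, 437 genes were higher and 421 lower, and DESeq2 called 158 higher and 216 lower at its adjusted p. These p-values measure the spread between 6 libraries, of which 4 are different tissues, and no gene remained past the edgeR threshold when CMs, AMs, SMs or either liver library was left out.

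Fabp7 and Cdh5 had 2 of the 4 largest ratios of KC-high genes, beside Vsig4 and Cd207. Fabp7 (chr10:57784881-57788450, plus strand), a brain-type fatty acid-binding protein that carries lipids inside cells, was at 926.3 and 860.8 CPM in KCs and at most 0.738 CPM in any other mac. Its edgeR log2 difference was 11.18 (SE 0.89, adjusted p = 0.0413). Cdh5 (chr8:104101625-104144511, plus strand), the adhesion molecule VE-cadherin, known from endothelial junctions, was at 376.8 and 518.3 CPM against at most about 1 CPM elsewhere. Its edgeR log2 difference was 9.27 (SE 0.56, adjusted p = 0.0113). The LSEC cluster that had been left out held 456 CPM of Cdh5, within the range of the KCs, whereas Kdr, an endothelial receptor gene, was at 426 CPM in that cluster and 6.72 and 6.94 CPM in KCs. Clec4f, at 4603 CPM in that cluster, was within the KC range as well, so the Cdh5 level there does not tell KC from endothelial RNA. Cdh5 was seen in 32.4% and 41.9% of thinned KCs and in at most 0.207% of any other mac. The endothelial list had a median edgeR log2 difference of 1.94, against -0.12 over all genes tested. Without Cdh5 its other 10 genes summed to 60.2 and 68.1 CPM in KCs, between 37.9 in microglia and 132.4 in SMs. Without Pecam1 as well, the sum was 30.9 and 25.1 CPM in KCs and at most 18.6 CPM (SMs) elsewhere. Of the 11 genes, 2 reached the level that allowed a KC-high call, and Cdh5 was the one called (2.19% of all genes). Pecam1 stood at 29.3 and 43.0 CPM in KCs and 114 CPM in SMs. The part of endothelial RNA in the KC values was not tested.

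Apoa2, an apolipoprotein made by hepatocytes, was at 24.3 and 24.9 CPM in KCs and at most 0.372 CPM in other macs (edgeR log2 difference 6.51, SE 0.55, adjusted p = 0.0432). Alb, encoding albumin, was at 21.2 and 32.6 CPM, with no UMI in CMs, AMs or SMs and 0.649 CPM in microglia. Both are genes of the hepatocyte list, of which 2 of the 4 members that could be KC-high were called (2.19% of all genes). In the left-out hepatocyte cluster they reached 549.6 and 202.8 CPM. The summed level of the 20 genes was 1176 and 942.2 CPM in KCs and 803.0 to 1511 CPM in the other macs, most of it Trf, the transferrin gene, which macs of every tissue expressed, or in AMs Fabp1. Without Trf and Fabp1 the other 18 genes summed to 146.0 and 187.4 CPM in KCs and to 7.73 to 10.4 CPM in the other macs. The median edgeR log2 difference of the 20 genes was 7.74, the highest of all lists, against -0.12 over all genes tested. Across the 105 KC-high genes, 3 were at least 2-fold higher in the hepatocyte cluster than in both KC libraries, 1 in the B cell cluster and none in the LSEC cluster. The hepatocyte and LSEC clusters also held 4702 and 4603 CPM of Clec4f, within the KC range of 4153 to 6102 CPM. KC transcripts could therefore hardly be 2-fold higher there, and these counts do not measure RNA carried over. The part of RNA from these cells in the KC values was not tested.

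By role, the KC-high genes of the scavenger and clearance list were 5 of 23 that could be called (21.7%, against 2.19% of all genes). Beside Vsig4, Cd5l and Timd4, they were Scarf1, a scavenger receptor, at 29.2 and 32.2 CPM against at most 6.84, and Msr1, scavenger receptor A, at 308 and 316 CPM against 146 in CMs. With TMM scaling (library factors that edgeR derives from most genes) Msr1 missed the rule and 4 were called. Several well-known clearance receptors were not KC-high. Marco, which binds bacteria, was at 353.0 and 642.6 CPM in KCs but also at 224.3 in SMs and 186.2 in AMs, and its lower log2 ratio of 0.65 missed the rule. Cd163, the receptor of haptoglobin-bound haemoglobin, was at 331.2 and 485.0 CPM against 391.0 in SMs, and Mrc1, the mannose receptor, was at 469 and 697 CPM against 1688 in SMs.

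Of 13 C-type lectins other than Clec4f that could be KC-high, 2 were called (15.4%, against 2.19% of all genes). Cd207, encoding langerin, lies near Clec4f (chr6:83671215-83677857 against chr6:83644542-83656187, both on the minus strand). Cd207 was at 228.9 and 242.8 CPM in KCs and at 0.232 CPM in CMs, with no UMI in microglia, AMs or SMs. It was seen in 39.7% and 43.2% of KCs at full depth and in 15.6% and 17.8% after thinning, and in at most 0.0690% of thinned cells elsewhere. Clec1b, a receptor for podoplanin, was at 709.1 and 566.6 CPM against 142.9 in SMs. Clec12a was close to even between liver and spleen, at 436 and 386 CPM in KCs and 362 CPM in SMs.

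The complement list had 3 KC-high genes of 18 (16.7%, against 2.19% of all genes). Beside Vsig4 these were C4b, at 237 and 257 CPM against 29.8 in CMs, and Cfb, at 51.8 and 29.5 CPM against 10.6 in AMs, which encode components of the classical and the alternative pathway. C4b has a near-identical copy in the mouse genome, so its reads could have been split or lost in counting. C6 was nearly equal in KCs (495.1 and 582.8 CPM) and SMs (472.4 CPM) and at most 4.84 CPM elsewhere. C1qa was at 8608 and 6538 CPM in KCs and at 11203 CPM in microglia, 7491 in CMs and 2395 in SMs, but was seen in only 0.0287% of AMs at full depth. Among the Fc receptors, Fcgr4 was the 1 of 5 called (2.19% of all genes), at 537 and 445 CPM in KCs against 214 in CMs, and with TMM scaling 0 of 5 were.

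Lipid-handling genes included some of the most abundant KC-high transcripts. Of the 25 genes of the LXR and cholesterol list that could be called, 4 were (16.0%, against 2.19% of all genes): Fabp7, Cd5l, Apoc1 and Smpdl3a. Apoc1, an apolipoprotein of chylomicrons and VLDL, was at 5750 and 5134 CPM in KCs, 278.3 in SMs and at most 26.5 in the rest. Smpdl3a, a phosphodiesterase induced by LXR, was at 817 and 693 CPM against 161 in AMs. Apoe, the partner gene of Apoc1 in the same chromosomal cluster, was higher in CMs (35909 CPM) than in KCs (27043 and 13006 CPM). Nr1h3 itself was at 393.3 and 476.7 CPM in KCs and 373.7 CPM in SMs, with 40.7 in AMs, 26.6 in CMs and 0.324 in microglia. Nr1h3 thus was not KC-high, and it marked liver and spleen together.

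Of 14 chemokine and receptor genes that could be KC-high, 2 were (14.3%, against 2.19% of all genes), and the median edgeR log2 difference of the list was -2.05. The list summed to 3651 and 3810 CPM in KCs and to 1922 (SMs) to 13617 CPM (CMs) elsewhere. Cxcl13, which attracts B cells, was at 303.3 and 428.1 CPM against 24.9 in CMs. Ccl24, an attractant of eosinophils, was at 1005 and 888.0 CPM in KCs, 133.7 in SMs and 86.2 in CMs, and had no UMI in AMs. Outside that list, Il18bp, a secreted inhibitor of interleukin 18, was at 755.1 and 556.9 CPM against 71.2 in SMs. Wfdc17, a small secreted protein, was the most abundant of the named KC-high genes, at 10615 and 13642 CPM against 1281 in CMs. Among adhesion genes, 2 of 17 were called (2.19% of all genes), Cdh5 and Siglec1. Siglec1, the sialic acid-binding receptor CD169, was at 77.2 and 106 CPM in KCs and 23.5 CPM in AMs.

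Of 32 transcription factors of the list that could be KC-high, 2 were called (6.25%, against 2.19% of all genes), Id3 and Irf7. Id3 was at 914.2 and 791.9 CPM in KCs, 76.1 in CMs and 34.9 in AMs, and at most 3.08 CPM in SMs and microglia. The share of thinned cells with an Id3 UMI was 54.5% and 50.4% in KCs and at most 5.94% in other macs. Its relative Id1 was shared with AMs (116.3 and 80.9 CPM in KCs, 76.3 in AMs). Id3 was also the 1 KC-high gene of 17 (5.88%) in the list of BMP, TGF-β and Notch signalling. Zeb2 was not KC-high, at 385.4 and 514.3 CPM in KCs and 312.2 to 738.1 CPM in the other macs. Spi1, encoding the mac factor PU.1, was at 662 and 507 CPM in KCs and 193 to 614 CPM elsewhere. Spic, the factor of red pulp macs, was at 94.0 and 111.2 CPM in KCs and 1641 CPM in SMs.

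Among the lists with at least 5 members that could be KC-high, the highest share was that of interferon-stimulated genes, which cells switch on after type I or type III interferon and which block virus entry, replication or release. Of the 24 members that could be called, 18 were KC-high (75.0%), against 2.19% of all genes, and the median log2 ratio of the 24 over the highest other tissue was 1.60. In edgeR the median log2 difference of the list was 2.58, against -0.12 over all genes tested, and none of its members passed the threshold. Irf7, the interferon regulatory factor that amplifies the interferon response, was at 573.6 and 519.4 CPM in KCs, 48.6 in SMs, 16.4 in CMs and at most 8.51 in microglia and AMs. Ifitm3, which blocks virus entry, was at 3451 and 3336 CPM against 730.2 in CMs. Oas3, a sensor of double-stranded RNA, was at 53.5 and 85.1 CPM and at most 1.88 elsewhere. Rtp4 was at 416.5 and 300.3 CPM in KCs against 40.1 in CMs, and Ifit3 at 135.4 and 112.1 CPM against 23.3 in SMs.

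Other members missed the rule. Ly6e was at 2443 and 2549 CPM against 1238 in SMs, a lower log2 ratio of 0.98, just short of the rule. Trim30a, at 223.4 and 346.4 CPM in KCs, stood at 278.8 CPM in SMs. The summed level of the list was 11523 and 12004 CPM in KCs, 3393 in SMs, 2628 in CMs, 1735 in microglia and 378.8 in AMs. Outside the list, among the 20 KC-high genes with the largest ratios, Ifi205 was at 71.3 and 71.1 CPM against 4.43 in SMs, Helz2 at 70.0 and 112 CPM against 9.10 in SMs, and Ly6a at 421 and 209 CPM against 23.6 in CMs. These 3 were picked after their values had been seen. Ifi205 and the Oas and Phf11 genes belong to families of close copies, so their counts are uncertain.

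After thinning to 1000 UMIs, the interferon-stimulated list gave a median of 11 UMIs per cell in each liver library, with 5 at the 5th and 20 at the 95th percentile in both. At least 1 UMI of the list was seen in 99.9% and 100% of KCs. The medians were 3 UMIs in SMs, 2 in CMs, 1 in microglia and 0 in AMs, and the shares of cells with any were 94.4%, 85.8%, 76.8% and 30.8%. The 95th percentiles were 7, 7, 5 and 2 UMIs in the same order. Other tissues also held cells led by such genes, with a cluster of 118 CMs led by Ifit1, Ifit2, Oasl1 and Ifit3 and 1 of 13 microglia led by Rsad2, Ifit1 and Ifit3. The list was not summed over clusters outside the liver. In the liver cluster left out as B cells the median was 6 UMIs and the share 98.4%, so the share with any UMI was high in most populations. How far free RNA made up these UMIs was not tested. Among clusters with at least 50 cells of a library that met the rule, the summed list lay between 10332 and 13562 CPM in all but 1. The exception was a cluster of 64 replicate 1 cells with 4567 CPM, described further on. The number of the 24 members that were KC-high ranged from 9 at a log2 ratio of 2 (0.878% of all genes) to 23 without SMs (4.91%), and was 24 against AMs alone, where 716 of 4785 genes were called.

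The interferon-stimulated response element, to which IRF7 and related factors bind, was searched as GAAA, any 2 bases and GAAA again, on both strands, in the 200 bases just before the RefSeq start of each gene, which can lie apart from the GENCODE bounds used for the other positions. RefSeq sequences (GRCm38.p6) were at hand for 13 of the 18 KC-high genes of the list, too few for a share over the list. Of those 13, 7 held a match, and over all promoters 629 of 27025 (2.33%) did. Members of the list that were not KC-high were not counted apart, so these numbers do not bear on the level in KCs. The 4 below are shown because each holds more than 1 match, with overlapping or spaced copies of the element, and because they range from a modestly to a clearly KC-high gene. They are written 5′ to 3′ on the strand of the gene, with the matched bases in capitals. A run that begins with TTTC is a match on the opposite strand.
Isg15, chr4:156200819-156201018, minus strand: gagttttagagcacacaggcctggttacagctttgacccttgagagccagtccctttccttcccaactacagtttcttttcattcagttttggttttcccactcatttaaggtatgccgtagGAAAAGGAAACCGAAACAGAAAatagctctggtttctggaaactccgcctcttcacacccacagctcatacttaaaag
Ifit1, chr19:34640689-34640888, plus strand: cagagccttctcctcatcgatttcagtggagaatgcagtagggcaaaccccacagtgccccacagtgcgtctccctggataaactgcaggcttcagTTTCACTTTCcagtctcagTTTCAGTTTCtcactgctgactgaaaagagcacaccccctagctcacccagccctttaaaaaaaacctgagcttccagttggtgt
Ifit3, chr19:34583329-34583528, plus strand: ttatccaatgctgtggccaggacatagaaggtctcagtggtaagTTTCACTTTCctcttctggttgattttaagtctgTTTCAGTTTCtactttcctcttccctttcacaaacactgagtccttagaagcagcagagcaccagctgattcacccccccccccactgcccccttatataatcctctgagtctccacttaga
Bst2, chr8:71537473-71537672, minus strand: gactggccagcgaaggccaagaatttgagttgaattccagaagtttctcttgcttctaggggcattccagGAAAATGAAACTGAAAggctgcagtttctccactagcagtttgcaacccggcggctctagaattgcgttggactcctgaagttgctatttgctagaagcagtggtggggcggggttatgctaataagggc
In Isg15 the 3 matches overlap and begin 78, 72 and 66 bases before the RefSeq start, and in Bst2 the 2 matches overlap and begin 130 and 124 bases before it. In Ifit1 they begin 104 and 85 bases before the start, and in Ifit3 156 and 122. The fifth gene with more than 1 match, Oas1a, held 2 overlapping matches that begin 20 and 14 bases before its start and is not printed. Isg15 was at 164.3 and 179.7 CPM in KCs against 71.7 in CMs, Ifit1 at 29.3 and 49.1 CPM against 11.8 in SMs, and Bst2, which tethers budding virus, at 698.4 and 681 CPM against 325.7 in CMs. With TMM scaling Bst2 missed the rule, while the list again had 18 KC-high genes. The windows of Irf7, Ifitm3, Clec4f, Vsig4, Cd5l, Timd4, Fabp7 and Cd207 held no match to these letters. A match is a description of the sequence and not a measured binding site.

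**Figure D3:**
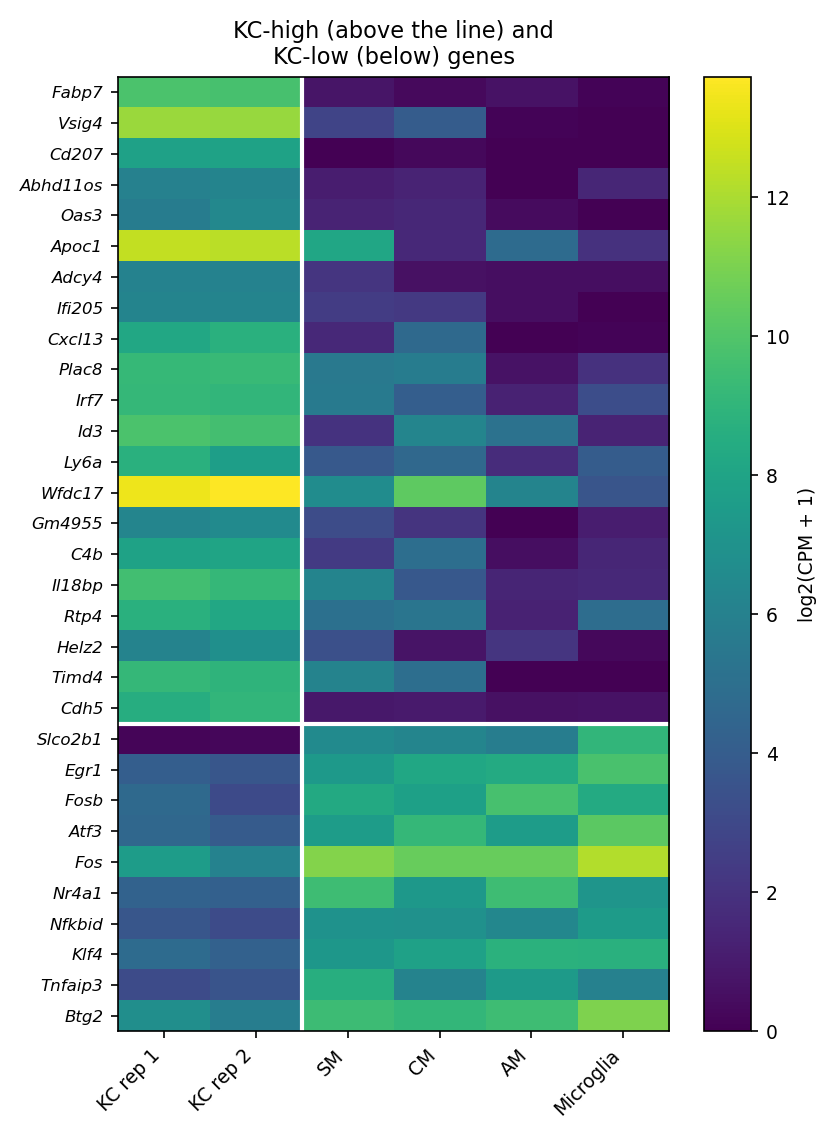
Level as log2 of CPM plus 1 in the 6 WT libraries for the 20 KC-high genes with the largest ratios outside the lists of other liver cells, and Cdh5, which belongs to such a list (above the white line) and the 10 KC-low genes with the lowest ratios (below it). The 2 liver columns are 2-fold or more apart for Fos, Fosb and Ly6a and closer for the other genes, with Fabp7, Cdh5 and Cd207 near 0 outside the liver and Slco2b1 near 0 inside it.

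Genes that KCs held at a lower level than every other mac were led by Slco2b1 and by immediate early genes. Slco2b1 (chr7:99657804-99711340, minus strand), an organic anion transporter, had 3 UMIs in each liver library, or 0.130 and 0.167 CPM. It was at 55.0 CPM in AMs, 76.3 in CMs, 92.9 in SMs and 520.0 in microglia. The AM level, the lowest of these, was 422.3 times that of replicate 1 (counting interval 144.5 to 2048) and 330.1 times that of replicate 2 (112.9 to 1601). Of the 46 KC-low genes, SMs were the lowest other tissue for 17, AMs for 11, and CMs and microglia for 9 each.

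Of the 15 genes of the immediate early and heat shock list that could be KC-low, 9 were (60.0%), against 1.3% of all genes, and no member was KC-high. These are genes that cells transcribe within minutes of a stimulus, handling included. Fos was at 190.6 and 68.2 CPM in KCs and at 1480 in CMs, 1517 in AMs, 2370 in SMs and 4542 in microglia. Egr1 was at 16.3 and 11.7 CPM against 167.2 to 892.6 CPM elsewhere, Atf3 at 23.3 and 14.5 CPM against 188.5 to 1228, and Fosb at 25.2 and 7.38 CPM against 224.2 to 856.0. The rule itself fixed that KCs were below every other tissue for these genes. Fos and Fosb also differed between the liver libraries, with log2 differences of replicate 2 over replicate 1 of -1.47 and -1.64. The edgeR adjusted p of the 10 KC-low genes with the lowest ratios was 0.206 or more.

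Heat shock genes did not follow the same order. Hspa1a was at 260.4 CPM in replicate 1 and 24.0 CPM in replicate 2, between 4.52 in AMs and 4859 in microglia. Hspa8, at 759.0 and 850.9 CPM, was close to the 900.3 CPM of AMs. After thinning, the list gave a median of 2 UMIs per cell in each liver library, against 8 in AMs, 11 in SMs, 13 in CMs and 23 in microglia. The tissues were digested differently according to the methods (collagenase with mechanical dissociation for liver, Liberase for lung, brain and spleen), and KCs and AMs were sequenced on another instrument, and counted with another Cell Ranger release, than the rest. AMs share both with the KCs. The parts of instrument and release were not tested. The part of digestion cannot be told apart from that of the tissue.

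Among the other KC-low genes with the lowest ratios, Nfkbid, encoding a nuclear inhibitor of NF-κB, was at 11.8 and 7.88 CPM against 82.4 to 186 CPM elsewhere. Tnfaip3, encoding the ubiquitin-editing enzyme A20, was at 7.77 and 11 CPM against 64.5 to 397. Of the 24 transcription factors that could be KC-low, 5 were (20.8%, against 1.3% of all genes): Egr2, Nr4a1, Klf4, Klf6 and Runx1. With TMM scaling Runx1 missed the rule and 4 were called. Nr4a1, which is also an immediate early gene, was at 19.0 and 17.3 CPM against 141.0 to 717.6. Egr2 and Klf4 were among the leading genes of a CM cluster together with the immediate early gene Egr1. The share of transcription factors is thus not shown to be separate from that of the immediate early genes. Klf4 was at 27.2 and 18.4 CPM against 156 to 442, and Runx1 at 21.7 and 39.8 CPM against 89.3 to 417. Egr2, at 2.08 and 2.11 CPM in KCs, was at 22.9 CPM in SMs and 403 CPM in AMs.

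**Figure D4:**
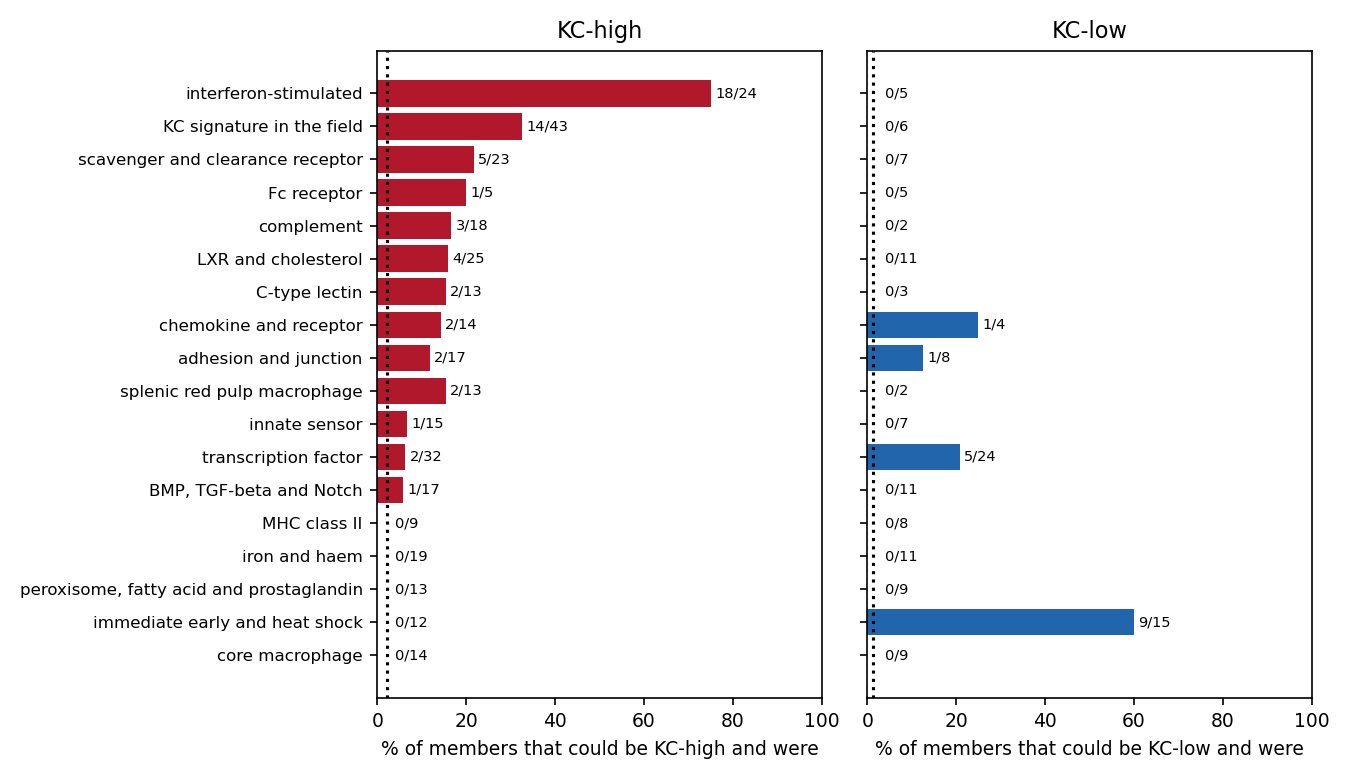
Percent of the members of each gene list that were KC-high (left) or KC-low (right) among the members that could be, with the share over all genes as a dotted line (2.19% and 1.3%). The interferon-stimulated list (18 of 24) has the longest KC-high bar of the lists shown, and the immediate early and heat shock list (9 of 15) the longest KC-low bar.

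**Figure D5:**
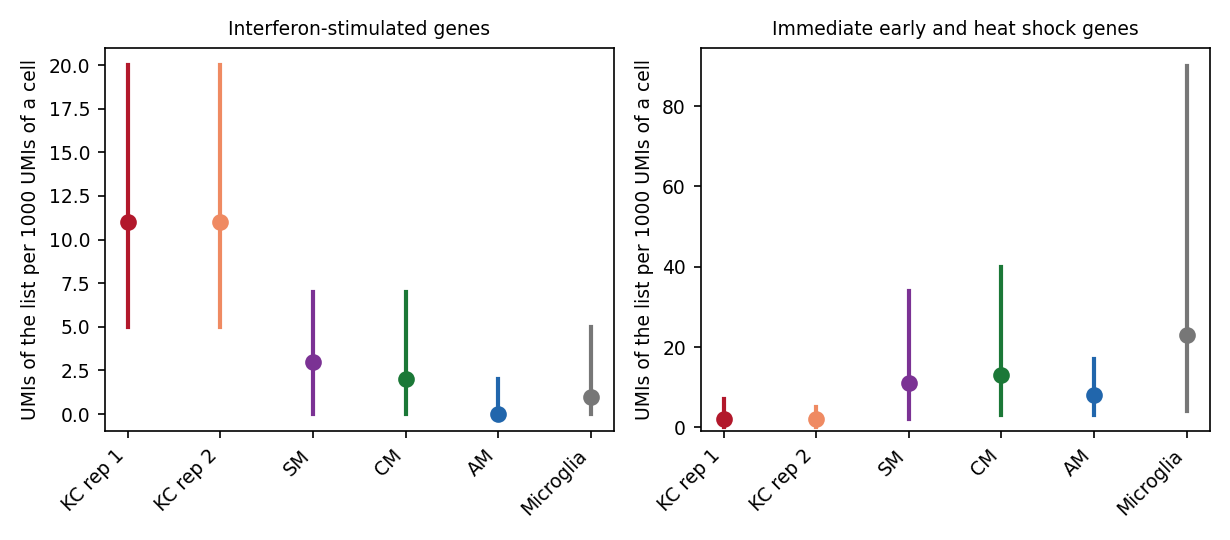
UMIs per cell of the interferon-stimulated list and of the immediate early and heat shock list after thinning each cell to 1000 UMIs. Points are medians over cells and lines run from the 5th to the 95th percentile. KCs have a median of 11 interferon-stimulated UMIs, against 0 to 3 in the other macs, and 2 immediate early and heat shock UMIs, against 8 to 23.

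By a count of genes, the spleen shared most with the liver. When a gene had to be 2-fold higher in KCs and 1 other tissue than in the remaining 3, SMs gave 121 genes, CMs 41, AMs 20 and microglia 13. Among the genes shared with SMs, Slc40a1, the iron exporter ferroportin, was at 2151 and 2813 CPM in KCs and 4921 in SMs, with at most 129.2 elsewhere. Hmox1, which breaks down haem, did not meet that rule, at 1082 and 1096 CPM in KCs, 11624 CPM in SMs and 764.6 CPM in microglia. None of the 19 genes of the iron and haem list that could be KC-high was called, which is not distinct from 2.19% of all genes. Paqr9 (233.7 and 315.5 CPM in KCs, 659.8 in SMs), Kcna2 (146.4 and 177.1, 308.0) and Pcolce2 (251.4 and 226.6, 159.8) were at most 0.349 CPM in the other macs.

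A list of genes used in the field as KC signature had 14 of 43 members KC-high (32.6%) against all 4 tissues (2.19% of all genes), and 28 of 43 when SMs were left out (4.91% of all genes in that setting). The list was chosen with earlier results of these and similar cells known and is not independent evidence. Of the members that did not pass, some were close to even with the spleen and others were higher there. Fcna, a ficolin, was at 1793 and 2038 CPM in KCs and 1597 in SMs, and Hpgd, which inactivates prostaglandins, was at 1294 and 1297 CPM in KCs and 1083 in SMs, whereas Spic, Hmox1, Slc40a1 and Paqr9 were higher in SMs. Leaving SMs out raised the number of KC-high genes from 105 to 235.

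CMs shared another set with KCs. Folr2, a folate receptor, was at 1765 and 1539 CPM in KCs and 551.8 in CMs, with at most 1.95 elsewhere. Cd209f, a lectin, was at 131.6 and 204.2 CPM in KCs and 241.8 in CMs, with no UMI in the other 3 tissues. Of the 105 KC-high genes, CMs were the highest other tissue for 45 (42.9%) and SMs for 43 (41.0%), against 10 for AMs and 7 for microglia. From AMs, KCs shared Itgal, an integrin subunit, at 342 and 636 CPM against 325 CPM.

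The same rule applied to the other tissues gave 567 genes for microglia (10.2% of those that could be called), 463 for AMs (8.33%), 335 for SMs (5.75%) and 122 for CMs (2.52%). Those counts come from 1 library each, so they are set beside the 138 and 131 of the single liver libraries. The sets compared are not alike: each of these tissues had to pass both liver libraries besides the other tissues. A single liver library was not set against the other liver library. KCs, like CMs, thus had few genes of their own by this rule. Of the core mac genes, 0 of 14 were KC-high and 0 of 9 KC-low, numbers too small to be told from the 2.19% and 1.3% of all genes. Their summed level was 48900 and 38356 CPM in KCs and 14622 (SMs) to 50132 CPM (CMs) in the other macs. Csf1r and Adgre1 were seen in 79.2% and 83.9% and in 54.4% and 62.3% of thinned KCs.

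Markers of other blood cells were at low levels in KCs, with few exceptions. The B cell list summed to 217.4 and 285.7 CPM in KCs, most of it Bank1 (168 and 225 CPM), while Cd79a, which defines B cells, was at 1.95 and 1.44 CPM against 1219 CPM in the left-out B cell cluster. The T and NK cell list summed to 10.8 and 13.8 CPM, the neutrophil list to 32.4 and 37.0 CPM and the erythroid list to 250.7 and 110.3 CPM (2803 CPM in SMs). Plac8, a gene of the monocyte list, was KC-high at 583 and 614 CPM against 53.6 in CMs, whereas Ccr2 and F13a1 of the same list were at most 8.16 CPM in KCs.

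Within the liver, the clusters of KCs took different shares of the 2 libraries. One cluster held 45.3% of replicate 1 cells and 3.76% of replicate 2 cells, and another 10.9% and 39.0%. Apart from the cluster of 64 cells, Clec4f ran from 3340 to 7041 CPM over clusters and libraries, and Timd4 from 366.8 to 591.7 CPM. These levels were summed only where a cluster had at least 50 cells of a library that met the rule. A dividing cluster held 1.109% of replicate 1 and 2.145% of replicate 2 cells that passed the quality filter. Its 79 replicate 2 cells had 3972 CPM of the dividing cell list, against 98.2 to 1237 CPM in the other clusters. Its replicate 1 cells were too few to be summed.

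The small cluster was made up of 64 replicate 1 cells, 1.65% of that library, with a median of 13340 UMIs. Its cells had 442.0 CPM of Clec4f, 1492 of Cd5l, 678.5 of Vsig4 and 70.1 of Irf7, all below every other cluster that was summed. Its Clec4f level was also below the 3434 CPM of the left-out B cell cluster. The 64 cells met the rule and are counted among the KCs in the values above, but whether they are KCs was not tested. Its hepatocyte list, which in KCs as a whole was mostly Trf, summed to 2904 CPM, against at most 1330 CPM in the other clusters. The sum without Trf was not made by cluster. Timd4, at 563.2 CPM, was not lower. Its summed immediate early and heat shock level was 6710 CPM. Genes that defined the cluster, which were used to find it and carry no test, included Alox15, Slpi, Prg4, Saa3 and Fn1. Without these cells there were again 105 KC-high genes, 104 of them in common with the full set, and 48 KC-low genes.

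Of 9 MHC class II genes that could be KC-high, 5 were at least 2-fold lower in replicate 2 than in replicate 1, against 0.648% of all such genes 2-fold apart in either direction. The list summed to 25130 and 13025 CPM, and there is no test between 2 single libraries. Cd74, the invariant chain, was at 7753 CPM in replicate 1 and 2949 CPM in replicate 2, and H2-Ab1 at 3713 and 1291 CPM. CMs had 24194 CPM of Cd74, above both. None of the 9 genes was KC-high, which is not distinct from 2.19% of all genes. Genotype, mice and library differ together between the liver libraries and cannot be told apart.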

How the data were processed

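Libraries were made on the 10x Genomics platform (3′ counting), and the authors processed the reads with Cell Ranger on mm10 (release 2.0.0 for KCs and AMs, 2.0.2 for the other tissues). The values used are raw UMI counts per gene and cell as deposited by the authors. CPM and log2 ratios were computed here. Cells more than 3 median absolute deviations from their library's median in log UMIs, log genes or, upwards, mitochondrial share were left out, as were clusters of other cell types (scanpy 1.11.5, leidenalg 0.10.2, resolution 0.8, 2000 variable genes). Scrublet did not separate doublets, so removing the highest 5% of scores was an alternative only. Counts were summed per library. The fold rules used a pseudocount of 1 CPM and a floor of 20 CPM. KCs (n = 2 libraries) were tested against the 4 other tissues in edgeR 4.0.16 (TMM, filterByExpr, quasi-likelihood F test, R 4.3.3), with adjustment by the Benjamini-Hochberg method over 12803 genes, and DESeq2 1.42.0 was an alternative. The steps were tested on simulated data. For edgeR these had the same dispersion for every gene, so the spread between the tissues was not reproduced. Genes named were the 4 markers, the 20 KC-high genes with the largest ratio and the 10 KC-low genes with the lowest, each at 50 CPM or more (genes of globins, immunoglobulins, ribosomes, mitochondria and the Y chromosome, Xist and Tsix left out, and members of the lists of other liver cells, here Cdh5, named apart), and up to 6 called and 4 uncalled members of each gene list. Other genes were named after their values had been seen. Coordinates are GENCODE M21 (GRCm38/mm10). The members and gene lists were chosen with earlier results of these data known. Intervals cover counting error only.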

Additional observations from a re-analysis of the deposited data

How the results depend on the processing

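The 105 KC-high genes became 166 at a floor of 5 CPM, 42 at a log2 ratio of 2 and 716 against AMs alone (an alternative added after the data had been seen), and 128 to 235 when 1 library was left out, with the highest number without SMs. The 46 KC-low genes became 25 at a floor of 50 CPM, 18 at a log2 ratio of 2, 1041 against AMs alone and 51 to 94 when 1 library was left out. Fewer tissues to exceed, or a changed threshold, make these differences by construction. In edgeR, 3 genes were higher, but 0 when clusters of other cell types were kept, 0 to 2 when 1 library was left out, and 158 in DESeq2. For genes lower the number was 0, 0 to 1 when 1 library was left out, and 216 in DESeq2. The cause of the gap between the tools was not tested. Of 1060 combinations of an alternative and 1 of 53 called genes (markers, genes with the largest or lowest ratios and up to 6 called members a list), 1036 kept direction and side of the threshold, 24 fell short of it and none reversed. The floor and ratio alternatives leave a ratio itself as it was. Leaving out a library, taking AMs alone or a floor of 5 CPM cannot undo a call by construction. All 53 genes stayed called in each of these settings, which therefore carry no support. With TMM factors 5 genes fell short, among them Bst2, Msr1, Fcgr4 and Runx1. Other named genes were not run. TMM scaling shifted libraries by -0.24 (CMs) to 0.18 (SMs) on the log2 scale and gave 114 KC-high and 34 KC-low genes. No paired analysis was possible because each other tissue has 1 library and the labels give no shared replicate numbers. SMs had the fewest UMIs, so low genes are least well measured there.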
